A study of Mus musculus with 12 samples.

Results

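The MHC class I presentation genes were followed in corticotrophs, the anterior pituitary cells that make ACTH, during and after chronic exposure to a glucocorticoid. The members were the rows of the expression table with the symbols *H2-K1*, *H2-D1*, *B2m*, *Tap1*, *Tap2*, *Tapbp*, *Psmb8*, *Psmb9*, *Psmb10* and *Nlrc5*, and all 10 of them were among the 55304 listed genes. The cells were sorted by fluorescence from adult male *Pomc*-eGFP mice on a C57Bl6/J background, in which the green fluorescent protein is driven by the *Pomc* promoter. Every mouse carried the transgene. Group A (control) drank plain water, group B (DEX) drank dexamethasone at 2.5 µg/ml for 4 weeks, and groups C and D received the same 4 weeks of DEX followed by 7 days (1 week) or 28 days (4 weeks) of plain water. Each group had 3 libraries, each from 1 pool of cage mates, so that n counts pools and not mice.

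MHC class I molecules display short peptides from inside the cell to cytotoxic T lymphocytes. Proteasomes cut proteins into peptides, the TAP transporter moves the peptides into the endoplasmic reticulum, and tapasin holds an empty heavy chain with beta 2 microglobulin beside the transporter until a peptide is bound. Nearly all nucleated cells make the pathway at some level, interferons raise it, and glucocorticoids are known to damp interferon and kappa B driven transcription in many tissues.

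Values are normalised CPM, counts scaled to library size after the authors' scaling between libraries, and 1 read was worth 0.0787 to 0.127 of them. Reads on genes ranged from 7719894 to 12848078 per library and the 10 most abundant genes took 19.2% to 46.2% of them. Pool 2 at 1 week after withdrawal stood apart with the lowest scaling factor, 0.702, and the highest *Pomc* value, 284740. RNA of other hormone cells was abundant in the sorted pools, with a control mean of 131548 for *Gh*, the growth hormone gene of somatotrophs, and 61015 for *Pomc*. *Pomc* was at 34562 to 74260 in control pools and 4241 to 8521 in DEX pools. *Tbx19*, the transcription factor of the corticotroph lineage, was at 218 to 459 in control pools and 498 to 1490 in DEX pools. The glucocorticoid target *Fkbp5* was at 80.8 to 106 in control pools and 230.1 to 545 in DEX pools, on the side that the labels give.

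Of the 10 genes, 7 lie on chromosome 17 in the mouse MHC. *Psmb9*, *Tap1*, *Psmb8* and *Tap2* follow each other within 34335 bases (chr17:34181987-34216321, GRCm38), *Tapbp* (chr17:33915899-33929292) and *H2-K1* (chr17:33996017-34000347) lie on one side of them and *H2-D1* (chr17:35262730-35267499) on the other. *B2m* is on chromosome 2 (122147686 to 122153083), and *Psmb10* (105935735 to 105938444) and *Nlrc5* (94434356 to 94527272) are on chromosome 8. These positions span whole protein coding genes in GENCODE M21. RefSeq promoter windows of GRCm38.p6, from 250 bases before to 50 after a start site, were matched for 8 of the 10 genes. They are shown for 5 genes, the promoters of both heavy chains and of *B2m*, which lay on opposite sides of control under DEX, that of *Psmb8*, the member that passed the test, and that of *Psmb9*, which shares its promoter region with *Tap1*. Capitals mark matches, on either strand, to an interferon-stimulated response element (GAAANNGAA), a gamma-activated site (TTCNNNGAA), a kappa B-like element (GGGANNNCC or GGANTTTCC) or a Y box (CCAAT). Only exact matches to these letters were marked. A variant of an element stays in lower case, as could the stretch cagtttcacttctgcacc of both heavy chain windows, so lower case does not show that an element is absent.
H2-K1 promoter, chr17:34000284-34000583, minus strand: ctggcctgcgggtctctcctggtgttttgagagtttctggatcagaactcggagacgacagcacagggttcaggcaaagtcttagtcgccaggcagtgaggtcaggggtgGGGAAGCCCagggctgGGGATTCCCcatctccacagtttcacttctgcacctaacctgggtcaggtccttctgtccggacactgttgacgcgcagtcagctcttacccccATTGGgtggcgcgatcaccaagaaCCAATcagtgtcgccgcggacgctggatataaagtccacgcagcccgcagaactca
H2-D1 promoter, chr17:35262844-35263143, plus strand: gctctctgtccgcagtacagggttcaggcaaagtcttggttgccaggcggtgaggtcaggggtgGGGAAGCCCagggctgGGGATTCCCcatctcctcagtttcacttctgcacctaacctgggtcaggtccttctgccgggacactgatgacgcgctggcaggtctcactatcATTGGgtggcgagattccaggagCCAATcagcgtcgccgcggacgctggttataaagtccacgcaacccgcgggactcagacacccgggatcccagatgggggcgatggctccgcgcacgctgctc
B2m promoter, chr2:122147437-122147736, plus strand: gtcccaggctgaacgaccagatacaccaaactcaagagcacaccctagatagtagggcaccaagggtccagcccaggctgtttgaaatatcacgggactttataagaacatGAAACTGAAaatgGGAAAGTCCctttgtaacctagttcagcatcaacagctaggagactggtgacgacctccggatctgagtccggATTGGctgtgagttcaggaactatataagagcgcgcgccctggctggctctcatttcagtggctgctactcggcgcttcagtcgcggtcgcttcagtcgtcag
Psmb8 promoter, chr17:34197945-34198244, plus strand: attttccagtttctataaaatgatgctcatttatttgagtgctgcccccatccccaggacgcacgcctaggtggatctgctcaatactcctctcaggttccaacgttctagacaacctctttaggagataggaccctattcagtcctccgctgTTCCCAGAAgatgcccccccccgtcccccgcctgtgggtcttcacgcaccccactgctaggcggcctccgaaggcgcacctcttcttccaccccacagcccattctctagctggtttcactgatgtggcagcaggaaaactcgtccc
Psmb9 promoter, chr17:34187281-34187580, minus strand: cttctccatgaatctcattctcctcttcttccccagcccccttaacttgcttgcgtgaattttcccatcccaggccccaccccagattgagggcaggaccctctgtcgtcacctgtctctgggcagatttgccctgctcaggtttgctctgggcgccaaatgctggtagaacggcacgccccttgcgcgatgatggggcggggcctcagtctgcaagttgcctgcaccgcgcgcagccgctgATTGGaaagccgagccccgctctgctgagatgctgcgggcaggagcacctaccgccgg

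*H2-K1* and *H2-D1* carried the same pair of kappa B-like elements, GGGAAGCCC and GGGATTCCC, within a longest identical run of 47 bases. In the windows shown, these elements began 140 and 124 bases before the start site of *H2-K1* and 186 and 170 bases before that of *H2-D1*. *B2m* carried GAAACTGAA beginning 139 bases and GGAAAGTCC beginning 126 bases before its start site. *Psmb8* had TTCCCAGAA beginning 97 bases before its start site, and *Psmb9* had a Y box only, 8 bases before its start. The *Psmb9* and *Tap1* windows overlap by 275 bases in opposite orientation. The matches are short and common, with kappa B-like letters in 19.6%, the Y box in 37.4%, the interferon-stimulated element in 8.56% and the gamma-activated site in 8.30% of all 32851 windows of this length. The core of a glucocorticoid response element (ACANNNTGT) was in 6.85% of all windows and its letters were in none of the 9 windows of these genes.

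The question was whether the pathway's RNA was altered by DEX and whether it recovered after withdrawal. Across the 4 groups, 1 of the 10 genes was called, *Psmb8*, against 0.315% of the 24736 genes tested (limma F test on log2(value + 0.1), adjusted p under 0.05). At an unadjusted p under 0.05 the F test took in 6 of the 10, *H2-K1*, *H2-D1*, *B2m*, *Psmb8*, *Psmb9* and *Psmb10*, against 9.21% of all genes. Both heavy chain genes and all 3 immunoproteasome subunits were lower in every DEX pool than in every control pool, while *B2m* was higher in every DEX pool. The transporter genes *Tap1* and *Tap2*, tapasin and the activator *Nlrc5* overlapped between DEX and control. In such sorted pools fewer cells of a type and less RNA per cell cannot be told apart.

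**Figure D1:**
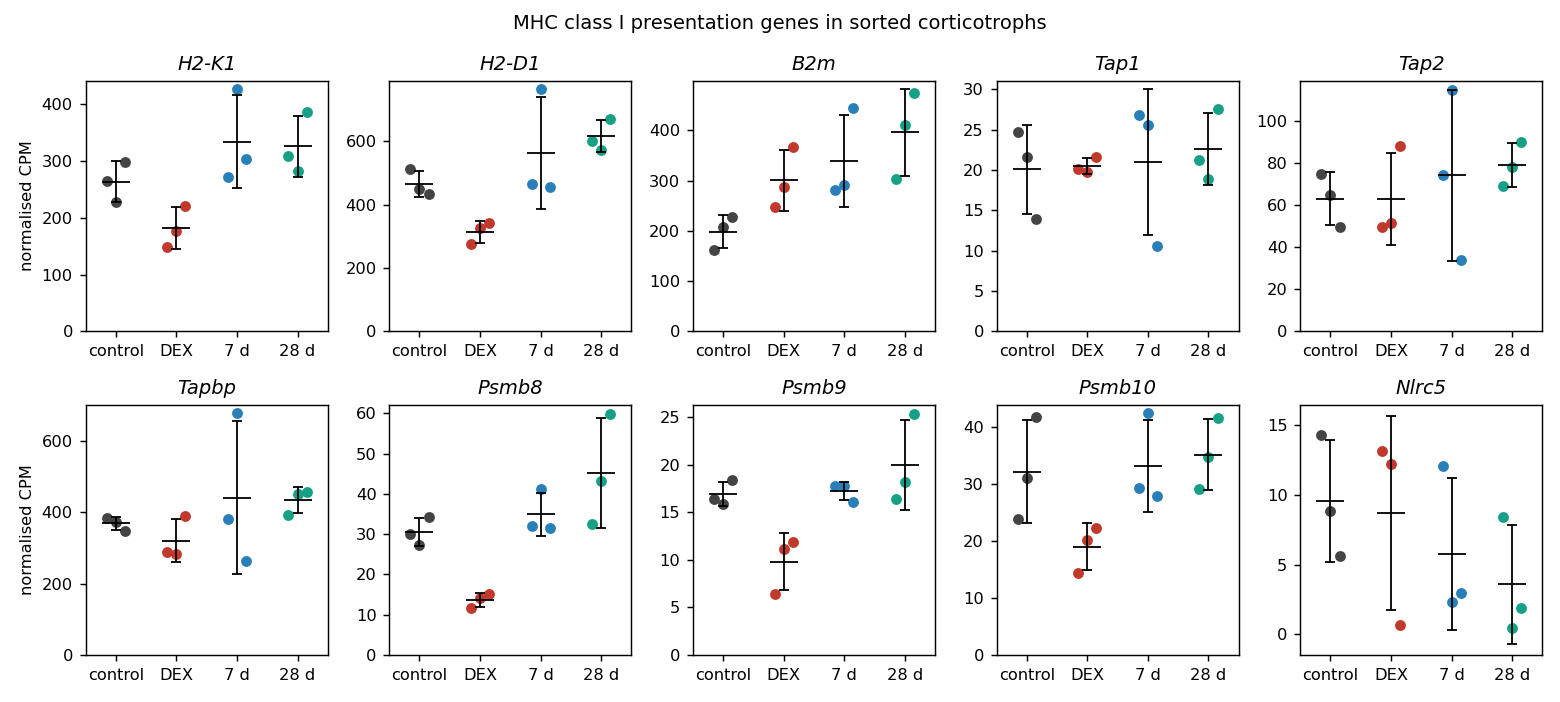
Normalised CPM (vertical axes, from 0 except for *Nlrc5*, whose lower SD bar passes below 0) of the 10 genes in the 3 pools of each group, with bars for the mean and SD (n = 3 pools). *H2-K1*, *H2-D1*, *Psmb8*, *Psmb9* and *Psmb10* dip in the DEX pools, *B2m* lies lowest in the control pools, and *Nlrc5* spreads from 0.438 to 14.3.

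*H2-K1* encodes the K heavy chain, one of the classical molecules that carry peptide to the cell surface. It stood at 265, 227 and 299 in control pools, 148, 177 and 220.3 in DEX pools, 271, 427 and 304 at 1 week after withdrawal and 309, 283 and 386 at 4 weeks. The lowest control pool and the highest DEX pool were close (227 and 220.3), and neither recovery group overlapped with DEX. The log2 fold change was −0.55 (SE 0.26, unadjusted p = 0.0520, limma adjusted p = 0.739) under DEX, and 0.87 (adjusted p = 0.168) and 0.85 (adjusted p = 0.172) at 1 and 4 weeks against DEX.

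*H2-D1* encodes the D heavy chain, the other classical molecule measured here. Control pools held 511, 448 and 435, DEX pools 276, 324 and 343, pools at 1 week 464, 765 and 456, and pools at 4 weeks 601, 573 and 671. All 3 pools at 4 weeks lay above all control and DEX pools, and DEX lay below every other pool. Its log2 fold change was −0.56 (SE 0.27, adjusted p = 0.736) under DEX, 0.80 (adjusted p = 0.237) at 1 week against DEX and 0.97 (SE 0.27, adjusted p = 0.116) at 4 weeks against DEX. None of these passed the threshold in limma. Without pool 2 at 1 week, *H2-D1* was called at 4 weeks against DEX (adjusted p = 0.0411). Of the 100-base stretches of *H2-K1* transcripts 0.957% also occur in transcripts of other genes, among them *H2-Q7*. Of those of *H2-D1* 3.59% do, among them in *H2-T23*. The authors counted only reads above a mapping quality cutoff, so reads that fit several genes could be dropped there.

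*B2m* encodes beta 2 microglobulin, the invariant light chain of class I molecules. It was at 162, 207 and 227 in control pools, 247, 288 and 367 in DEX pools, 282, 290.3 and 446 at 1 week, and 303, 411 and 474 at 4 weeks. Every pool of the other 3 groups lay above every control pool. The log2 fold changes against control were 0.59 (SE 0.28, unadjusted p = 0.0494), 0.75 (unadjusted p = 0.0159) and 0.99 (unadjusted p = 0.00286), and none was called (limma adjusted p = 0.731, 1.00 and 0.527). Against DEX they were 0.16 at 1 week and 0.39 at 4 weeks, and the groups overlapped. Light and heavy chain RNA lay on opposite sides of control in the DEX pools, at 1.51 times the control mean for *B2m* and 0.688 and 0.677 times for *H2-K1* and *H2-D1*. Per kilobase of exon, *B2m* had 231 ± 39.2 normalised CPM in control pools (SD, n = 3), *H2-D1* 180.1 ± 15.9 and *H2-K1* 89.8 ± 12.2. Under DEX the same per kilobase values were 349.8 ± 70.5, 122 ± 13.4 and 61.8 ± 12.4.

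*Tap1* and *Tap2* encode the 2 subunits of the peptide transporter. *Tap1* was at 24.7, 21.6 and 13.9 in control pools, 20.1, 19.7 and 21.6 in DEX pools, 26.8, 25.6 and 10.6 at 1 week and 21.2, 18.9 and 27.5 at 4 weeks. All groups overlapped, and its 95% interval for DEX against control ran from −0.67 to 0.81 on the log2 scale around 0.07. *Tap2* was at 74.5, 64.4 and 49.6 in control pools, 49.3, 51.3 and 87.9 in DEX pools, 74.0, 115 and 33.6 at 1 week and 69.0, 77.8 and 89.8 at 4 weeks. Its log2 fold change under DEX was −0.03 with a 95% interval of −0.82 to 0.75, and its groups overlapped as well. At 4 weeks against DEX the log2 fold changes were 0.12 (adjusted p = 0.966) for *Tap1* and 0.37 (adjusted p = 0.851) for *Tap2*. The intervals are wide enough to hold a change of the size seen for the heavy chains. *Tap2* shares 533 exonic bases (14.1% of its own) with *Gm15821* and 165 with *Gm20496*, both on the opposite strand.

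*Tapbp* encodes tapasin, the bridge between transporter and empty heavy chain. Control pools held 385, 373 and 349, DEX pools 289, 283 and 389.6, pools at 1 week 381, 680.0 and 263, and pools at 4 weeks 392.2, 452 and 458. The third DEX pool lay above all control pools, the pools at 1 week spread from the lowest to the highest of all libraries, and all 3 pools at 4 weeks lay above control and DEX. The log2 fold change was −0.22 (SE 0.31) under DEX and 0.45 (SE 0.31) at 4 weeks against DEX, and no comparison was called (F test adjusted p = 0.930). The value of 680.0 belonged to the pool with the scaling factor of 0.702. *Tapbp* shares 904 exonic bases (24.9% of its own) with the antisense gene *Gm19412* and 149 with *Zbtb22*. The library chemistry does not mark strand, so reads of a gene and its antisense partner cannot be told apart. 

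*Psmb8*, *Psmb9* and *Psmb10* encode the catalytic subunits that replace *Psmb5*, *Psmb6* and *Psmb7* in the immunoproteasome and change which peptides are cut. *Psmb8* was at 29.98, 27.3 and 34.4 in control pools, 11.6, 14.1 and 15.03 in DEX pools, 32.0, 41.2 and 31.6 at 1 week and 32.5, 43.2 and 59.7 at 4 weeks. The DEX pools, at 134 to 173 reads, lay below all the others with a wide gap, and both recovery groups overlapped with control. *Psmb8* differed over the 4 groups (limma F test, adjusted p = 0.0297). It was the one member called in pairwise contrasts, rising after withdrawal by 1.35 on the log2 scale at 1 week (SE 0.26, limma adjusted p = 0.0322, background 0.433%) and by 1.69 at 4 weeks (SE 0.26, limma adjusted p = 0.00832, background 0.873%), each against DEX. Under DEX it had 0.445 times the control mean, a log2 fold change of −1.17 (SE 0.26, 95% interval −1.72 to −0.61) that missed the threshold (unadjusted p = 0.000456, limma adjusted p = 0.117). Against control it differed by 0.19 at 1 week and 0.52 at 4 weeks, neither called. 

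The calls of *Psmb8* were lost without single pools. Over the 4 groups its adjusted p was above 0.05 without control pool 2 (0.0576), DEX pool 1 (0.263), 2 (0.105) or 3 (0.172), and without pool 2 (0.0971) or 3 (0.0842) at 4 weeks. At 4 weeks against DEX it was above 0.05 without DEX pool 1 (0.0701) or without pool 2 (0.0660) or 3 (0.0641) at 4 weeks. At 1 week against DEX it was above 0.05 without control pool 2 (0.0544), DEX pool 1 (0.200), 2 (0.0774) or 3 (0.108), pool 2 at 1 week (0.0838) or pool 2 at 4 weeks (0.0612). The fold change kept its direction in these fits, from 1.23 to 1.43 at 1 week and from 1.47 to 1.90 at 4 weeks. *Psmb8* is also in the study's own list of changed genes, which was chosen on these samples, so that list is not independent evidence. Its exons share 498 bases (14.7%) with the antisense gene *Gm20496*.

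*Psmb9* was at 16.4, 15.9 and 18.4 in control pools, 6.38, 11.1 and 11.9 in DEX pools, 17.8, 17.7 and 16.1 at 1 week and 16.4, 18.2 and 25.4 at 4 weeks. *Psmb10* was at 23.8, 31.0 and 41.6 in control pools, 14.4, 20.2 and 22.3 in DEX pools, 29.2, 42.4 and 27.8 at 1 week and 29.1, 34.7 and 41.5 at 4 weeks. For both genes the DEX pools lay below every pool of the other groups, and the other groups overlapped. The log2 fold change of *Psmb9* was −0.83 (SE 0.29, adjusted p = 0.508) under DEX, 0.86 (adjusted p = 0.251) at 1 week against DEX and 1.04 (adjusted p = 0.125) at 4 weeks against DEX. That of *Psmb10* was −0.74 (SE 0.29, adjusted p = 0.597), 0.80 (adjusted p = 0.282) and 0.89 (adjusted p = 0.198). None passed in limma. *Psmb9* and *Tap1* are divergent neighbours with 212 shared exonic bases, and *Psmb9* had 0.579 times its control mean under DEX where *Tap1* had 1.02 times.

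Within a library, the ratio of an immunoproteasome subunit to its standard counterpart does not depend on the scaling between libraries. *Psmb8* reached 39.4%, 36.8% and 42.3% of *Psmb5* in control pools and 21.5%, 23.3% and 14.2% in DEX pools. It was 50.2%, 32.6% and 46.2% of *Psmb5* at 1 week and 55.4%, 51.4% and 64.4% at 4 weeks, where every pool lay above control. *Psmb9* was 8.32% to 8.57% of *Psmb6* in control pools, 4.37% to 7.61% in DEX pools, 5.98% to 9.32% at 1 week and 9.72% to 11.7% at 4 weeks. *Psmb10* was 43.4% to 65.0% of *Psmb7* in control pools, 27.2% to 39.7% in DEX pools, 44.6% to 54.1% at 1 week and 51.6% to 72.7% at 4 weeks. All 3 ratios were thus below control in all DEX pools, by −1.04 (SE 0.23), −0.64 (SE 0.25) and −0.74 (SE 0.23) on the log2 scale. The two-sided exact permutation test gave p = 0.1 for each, the smallest that 3 pools against 3 allow (adjusted p = 0.180 over the 9 comparisons with control), so this design cannot reach 0.05. The ratios of *Psmb8* and *Psmb9* at 4 weeks were above control by 0.53 and 0.33 with the same exact p. Per kilobase of exon, *Psmb8* had 9.04 normalised CPM in control pools against 85.8 for *Psmb5*, *Psmb9* 4.62 against 107 for *Psmb6*, and *Psmb10* 18.8 against 16.9 for *Psmb7*. These lengths merge the exons of all transcripts. They were 3381 bases for *Psmb8* and 899 for *Psmb5*, 3660 for *Psmb9* and 1872 for *Psmb6*, and 1705 for *Psmb10* and 3421 for *Psmb7*. Genes with long minor transcripts are understated on this scale, so it does not give the true ratio of 2 subunits.

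**Figure D2:**
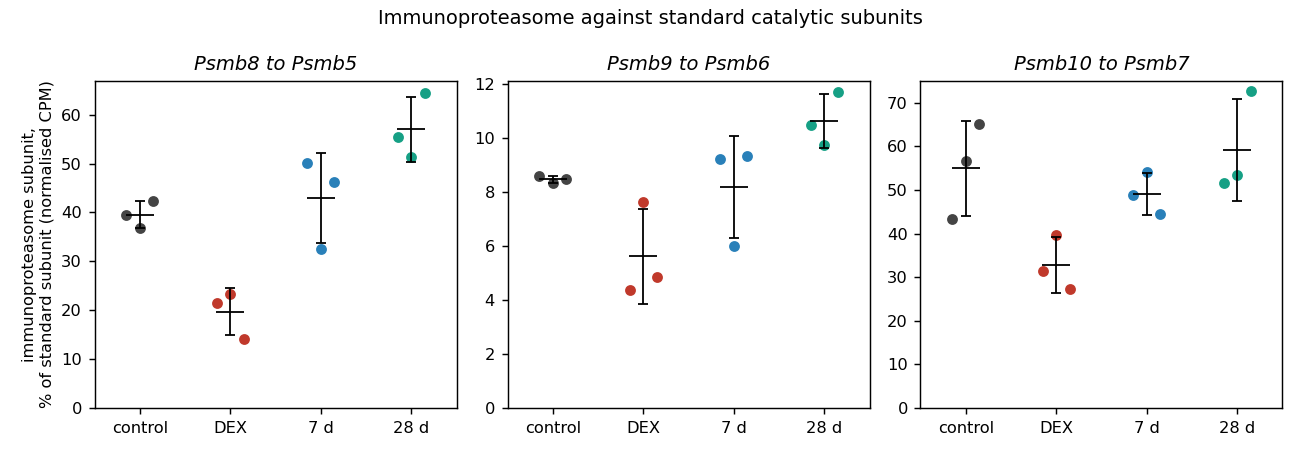
Immunoproteasome subunit as a percentage of its standard counterpart (vertical axes, from 0) in the 3 pools of each group, with mean and SD (n = 3 pools). The DEX pools lie below all control pools in each panel, for *Psmb8* at 14.2% to 23.3% against 36.8% to 42.3%.

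*Nlrc5* encodes the transactivator of class I promoters, which acts through the same promoter module that binds the Y box factors. It was at 14.3, 8.83 and 5.65 in control pools, 13.2, 12.3 and 0.673 in DEX pools, 12.1, 2.29 and 3.00 at 1 week and 8.41, 0.438 and 1.89 at 4 weeks. Each group but control held at least 1 pool near 2 or lower, the lowest values rested on 4 and 6 reads, and all groups overlapped. The log2 fold change was −0.85 under DEX (95% interval −3.08 to 1.38) and 0.50 without the third DEX pool, and it was −1.27 at 4 weeks against DEX (95% interval −3.50 to 0.96). The 4 groups did not pass the F test (adjusted p = 0.855), and at this spread a change of several fold was not detectable. Per kilobase of exon it was the lowest of the 10 genes in control pools, at 1.13.

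DEX against control called 0 of the 10 genes (limma, background 0.121%). At an unadjusted p under 0.05 there were 4, *B2m* higher and *Psmb8*, *Psmb9* and *Psmb10* lower, against 6.80% of all genes. On the recovered reads, edgeR called 0 by its quasi-likelihood (0.170% of genes) and by its likelihood ratio test (1.10%), and DESeq2 called *Psmb8* (0.825%), as did limma with array weights (0.671%). No overlap between the groups was seen for 5 genes lower in DEX, against 6.23% of all genes lower in this way, and for 1 higher, against 6.61%. At 1 week against DEX, 5 genes were higher with no overlap (background 6.97%), and at 4 weeks 6 genes, *Tapbp* with them (background 9.80%). The median log2 fold change of the 10 genes was −0.56 under DEX, where that of all genes tested was −0.02, and 0.58 at 1 week and 0.65 at 4 weeks against DEX, where those of all genes were 0.03 and 0.00. The comparisons with DEX share its 3 pools. At an unadjusted p under 0.05, 5 members were called in each of these (10.8% of genes at 1 week and 9.94% at 4 weeks), both heavy chains and the 3 immunoproteasome subunits.

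Neither recovery group had a member called against control (0 of 10, limma, both backgrounds 0%), with *B2m* alone at an unadjusted p under 0.05 in each (3.79% of genes at 1 week and 6.35% at 4 weeks). *B2m* was the 1 member above all control pools at 1 week (background 3.47%), and *H2-D1*, *B2m* and *Tapbp* were the 3 at 4 weeks (6.77%). The quasi-likelihood test (0.00404% and 0%), the likelihood ratio test (0.202% and 0.364%) and DESeq2 (0.0526% and 0.239%) called 0 members there, and array weights called *B2m* at 4 weeks (0.752%). Between the recovery groups 0 members were called by limma (background 0%), 0 had an unadjusted p under 0.05 (5.47%), and edgeR (quasi-likelihood 0%, likelihood ratio 0.651%) and DESeq2 (0.0606%) called 0.

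Over the 4 groups, *Psmb8* alone was called by the quasi-likelihood (0.639% of genes), the likelihood ratio (4.17%) and the unscaled fit (0.509%), while DESeq2 called *H2-K1* and *H2-D1* as well (2.97%) and array weights all 6 genes named above (4.32%). At 1 week against DEX, *Psmb8* alone was called by the quasi-likelihood (0.550%) and likelihood ratio tests (2.85%) and array weights (2.29%), and DESeq2 called *H2-K1* and *H2-D1* with it (2.32%). At 4 weeks, *Psmb8* alone was called by the quasi-likelihood (0.865%) and likelihood ratio tests (2.64%) and the unscaled fit (0.906%). DESeq2 called *H2-K1*, *H2-D1* and *Psmb9* with it there (2.68%), and array weights these and *Psmb10* (5.26%).

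**Figure D3:**
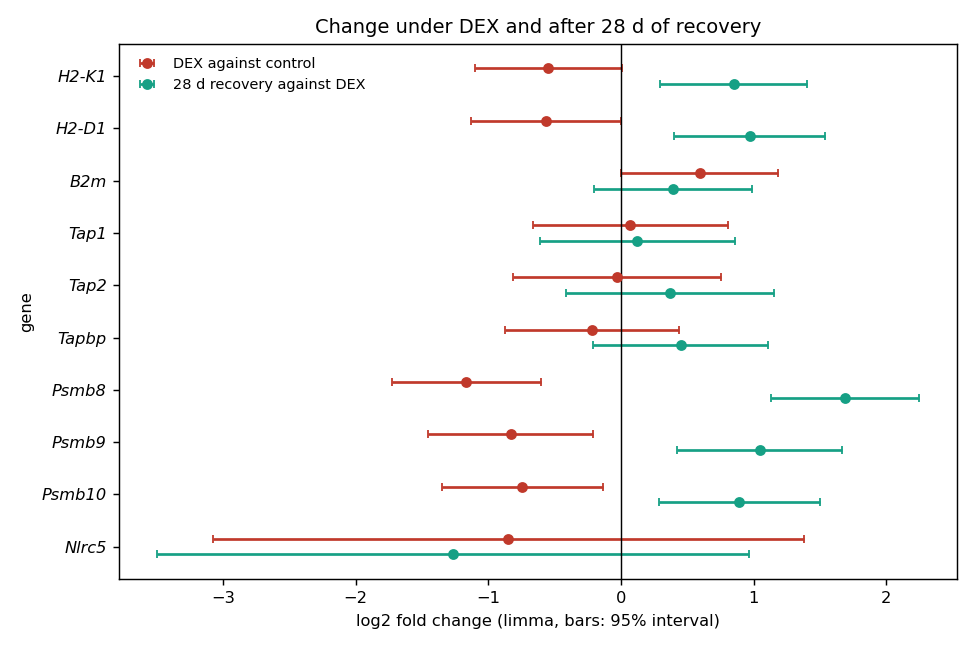
log2 fold changes (horizontal axis, points) with limma 95% intervals (bars) of the 10 genes for DEX against control and for 4 weeks after withdrawal against DEX, 3 pools a group. *Psmb8* lies at −1.17 and 1.69, *B2m* lies to the right of 0 in both, and the interval of *Nlrc5* spans several fold.

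Reads and scaling bear on these values. On counts scaled by total reads only, without the authors' scaling between libraries, the median log2 fold change of all genes was 0.10 under DEX, and −0.29 and −0.24 at 1 and 4 weeks against DEX. On that scale the same 5 genes were still lower in all DEX pools than in all control pools and *B2m* was still higher. *Psmb9* then overlapped with DEX at 1 week, *B2m* with control at 1 week, *H2-D1* and *Tapbp* with control at 4 weeks and *Tapbp* with DEX at 4 weeks, while *Psmb8* was no longer called at 1 week (adjusted p = 0.0634), and 0 members were (1.08% of genes).

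Correlations between members over the 12 pools are given as a description. Pearson's r of log2(value + 0.1) among *H2-K1*, *H2-D1*, *Psmb8*, *Psmb9* and *Psmb10* lay between 0.82 and 0.94. For the transporter genes and tapasin, r was 0.91 for *Tap2* and *Tapbp*, 0.83 for *Tap1* and *Tap2* and 0.60 for *Tap1* and *Tapbp*. *Tapbp* also had r of 0.52 to 0.78 with the first 5 genes, highest with *H2-D1*. *B2m* had r of 0.23 to 0.32 with those 5 and −0.71 with *Nlrc5*. After the group means were taken out, r was 0.94 for *Tap2* and *Tapbp*, 0.79 for *H2-K1* and *H2-D1* and 0.78 for *Psmb8* and *Psmb9*. *H2-D1* then had higher r with *Tapbp* (0.86) and *Tap2* (0.78) than with *Psmb8* (0.57), *Psmb10* (0.52) and *Psmb9* (0.42). All pairs share the libraries and their scaling, and neighbouring or antisense genes can share reads.

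**Figure D4:**
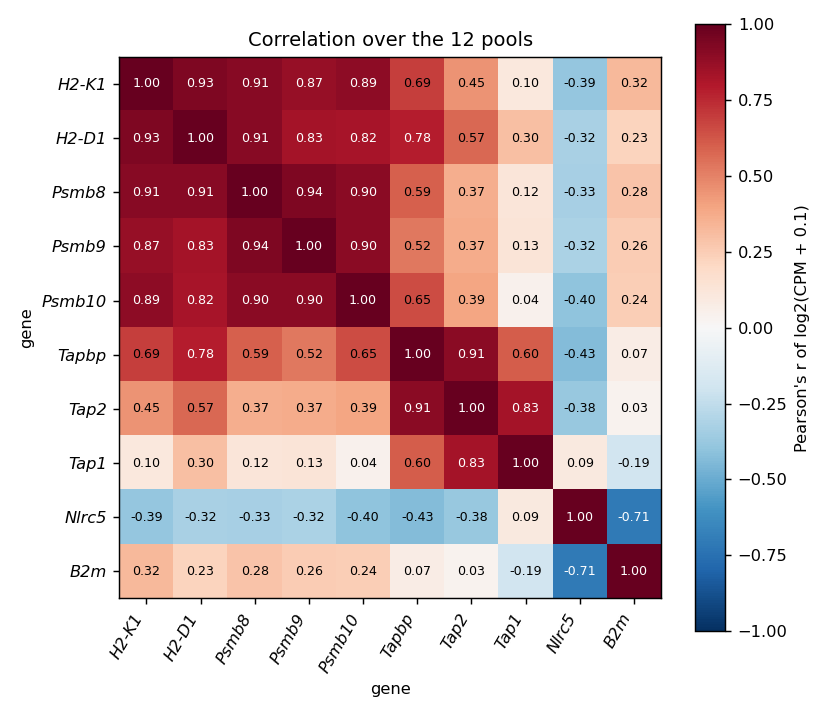
Pearson's r of log2(CPM + 0.1) for each pair of the 10 genes over the 12 pools (colour and number in each cell). The heavy chains and immunoproteasome subunits lie at 0.82 or above with each other, *Tap2* and *Tapbp* reach 0.91, *H2-D1* and *Tapbp* 0.78, and *B2m* and *Nlrc5* lie apart at −0.71.

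The other genes of the pathway were read from lists. Of 20 class I-like and nonclassical heavy chain genes, 17 were tested and 0 were called by the F test (6 at an unadjusted p under 0.05, against 9.21% of all genes). *H2-Q6* rose at both times against DEX, from 1.41, 2.698 and 0.897 in DEX pools to 8.84, 5.61 and 20.2 at 1 week (log2 fold change 2.65, adjusted p = 0.0307) and 9.70, 7.66 and 14.98 at 4 weeks (2.697, adjusted p = 0.0235). *H2-Q7* rose at 4 weeks (2.53, adjusted p = 0.0473). The Q genes are near-identical, so reads that fit several of them could be dropped by the mapping quality cutoff. *H2-Q6* is in the study's own list. The most abundant of this list was *H2-Q2*, with means of 63.4 in control and 52.9 in DEX pools. The median log2 fold change of the 17 was −0.58 under DEX and 0.62 at 4 weeks against DEX, and 10 were higher in every pool at 4 weeks than in every DEX pool, as were 9.80% of all genes tested. At 4 weeks against control, the median was 0.30, with 6 higher with no overlap (6.77% of all genes) and 1 lower (6.42%).

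Downstream and upstream steps gave no calls. Of the 8 folding and loading partners in the endoplasmic reticulum, the 5 cytosolic peptidases in the table, the 18 standard proteasome and activator genes and the 21 regulators of class I, 0 were called in any contrast (limma), with 0, 0, 0 and 1 at an unadjusted F test p under 0.05 (9.21% of all genes). Their median log2 fold changes under DEX were −0.02, 0.26, −0.17 and 0.06. *Hspa5*, an abundant chaperone, had means of 1344 in control and 1314 in DEX pools. *Psmb2*, a core subunit, had 309 and 270.3, and the peptidase *Npepps* 59.5 and 50.6. *Irf1*, a factor that drives class I and immunoproteasome promoters, had means of 326 in control pools, 417 in DEX pools, 222 at 1 week and 254 at 4 weeks, with F test adjusted p = 0.718.

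Of 20 interferon-stimulated genes, 0 were called by the F test and 11 had an unadjusted p under 0.05 (9.21% of all genes). At 4 weeks against DEX, 14 of the 20 were higher with no overlap (9.80% of all genes) and the median log2 fold change of the 20 was 1.14 (0.00 over all genes). Under DEX against control, 4 of the 20 were lower with no overlap (6.23% of all genes) and the median was −0.48 (−0.02 over all genes). At 4 weeks against control, 8 of the 20 were higher with no overlap (6.77% of all genes) and 1 was lower (6.42%). The median there was 0.72 (0.00 over all genes), and 0 were called by limma. The summed level of the list was 241 to 440 in control pools and 230 to 287 in DEX pools. It was 230 to 517 at 1 week and 328 to 500 at 4 weeks, so the sums at 4 weeks overlapped with control. *Bst2*, which tethers viruses at the cell surface, rose from 1.66, 2.04 and 2.13 in DEX pools to 6.65, 7.44 and 9.29 (1.94, SE 0.37, adjusted p = 0.0254). *Iigp1*, an interferon-inducible GTPase, rose from 0.994, 2.13 and 0.449 to 25.3, 12.04 and 15.3 (3.93, SE 0.76, adjusted p = 0.0254). *Irgm1*, the most abundant of the list, had means of 112 in control and 82.0 in DEX pools.

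Class II genes, which serve professional antigen presenting cells, were low in the same DEX pools. Of 10 class II genes, 5 were called by the F test (0.315% of all genes), *Cd74*, *H2-Aa*, *H2-Ab1*, *H2-Eb1* and *H2-DMb1*, and all 5 are in the study's own list. *Cd74*, the invariant chain, was at 29.6, 42.8 and 104 in control pools and fell to 3.48, 10.4 and 4.71 in DEX pools (log2 fold change −3.17, limma adjusted p = 0.0145), with 59.4, 89.5 and 69.2 at 1 week and 70.4, 141 and 155 at 4 weeks. The summed level of the list was 63.7 to 194 in control pools, 15.9 to 34.0 in DEX pools, 124 to 215 at 1 week and 139 to 362 at 4 weeks.

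The summed levels of markers of other cell types also differed between pools. The summed level of 12 endothelial markers was 11.3 to 86.5 in control pools, 7.79 to 14.2 in DEX pools, 35.4 to 225 at 1 week and 95.1 to 182 at 4 weeks. *Kdr* and *Emcn* were called by the F test (0.315% of all genes). At 4 weeks against DEX 6 were called (limma, 0.873% of all genes), *Pecam1*, *Tie1*, *Plvap* and *Tek* with them. All 12 were higher in every pool at 4 weeks than in every DEX pool (9.80% of all genes), and *Plvap* was the most abundant. The sum of 14 macrophage and myeloid markers was 31.1 to 48.0, 26.2 to 40.03, 53.5 to 94.3 and 44.0 to 108 in the same order, with 0 called by limma (8 at an unadjusted F test p under 0.05, against 9.21% of all genes) and *Lyz2* the most abundant. Against DEX, 8 of the 14 were higher with no overlap at 1 week (6.97% of all genes) and 8 at 4 weeks (9.80%). Their median log2 fold changes were 1.58 and 1.61, and 0 were lower with no overlap. For 10 fibroblast and pericyte markers the sum was 98.5 to 159, 77.7 to 119.9, 89.9 to 231 and 187 to 295, with *Col1a2* the most abundant. *Col3a1* was called by the F test (0.315% of all genes), and *Pdgfrb* with it at 4 weeks against DEX (limma, 0.873%). In that comparison 7 of the 10 were higher with no overlap (9.80% of all genes) and 0 lower, with a median of 3.07. *Col3a1*, *Pdgfrb*, *Kdr* and *Pecam1* are in the study's own list, which was chosen on these samples. Among 12 lymphocyte and dendritic cell markers, of which 9 were tested and 0 called by limma (1 at an unadjusted F test p under 0.05, against 9.21% of all genes) and *Cd79b*, a B cell gene, was the most abundant, the sum was 7.30 to 9.02, 7.63 to 11.4, 5.61 to 7.70 and 7.67 to 15.4. At 4 weeks against DEX, 3 of the 9 were higher with no overlap (9.80% of all genes) and their median log2 fold change was 1.11 (0.00 over all genes). The T cell gene *Cd3e* was at most 0.248 and the B cell gene *Ms4a1* at most 0.109 in any pool, and *Ptprc*, the common leukocyte antigen, was at 0.589 to 1.30 in control pools, 0.409 to 1.33 in DEX pools, 1.14 to 1.45 at 1 week and 1.85 to 2.96 at 4 weeks. The part of these cells in the values of the class I genes was not tested.

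**Figure D5:**
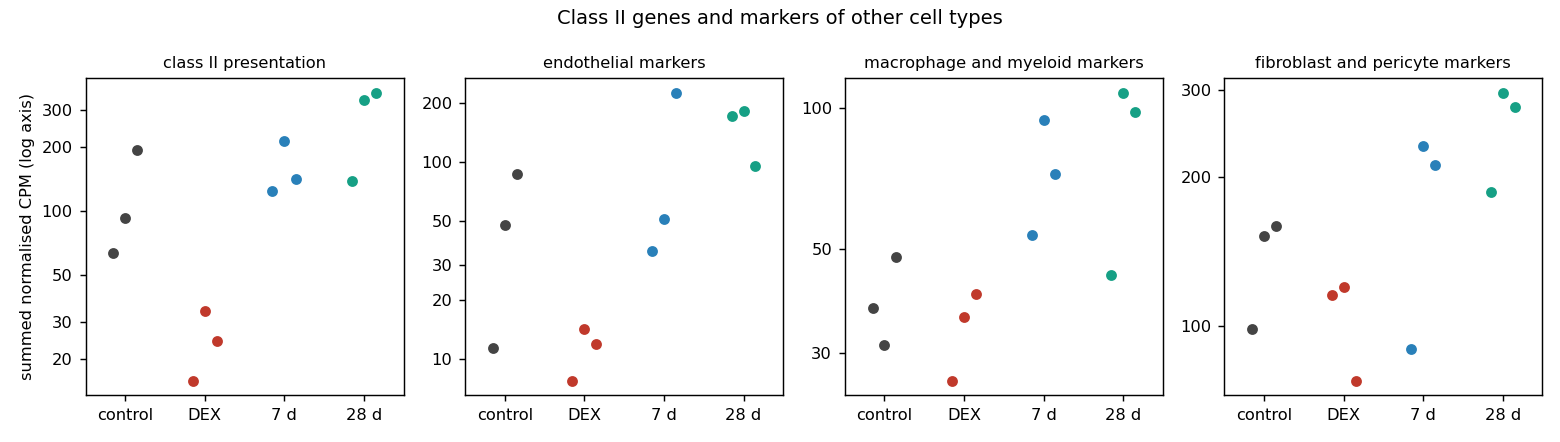
Summed normalised CPM (vertical log axes) of the class II genes and of the endothelial, myeloid and fibroblast marker lists in each of the 3 pools a group. The DEX pools are low in the first panels, at 15.9 to 34.0 for class II and 7.79 to 14.2 for endothelial markers, where 1 control pool (11.3) is as low, and the myeloid sums of control and DEX pools overlap.

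By level per kilobase of exon in control pools, the order was *B2m* (231), *H2-D1* (180.1), *Tapbp* (102), *H2-K1* (89.8), *Psmb10* (18.8), *Tap2* (16.6), *Psmb8* (9.04), *Psmb9* (4.62), *Tap1* (3.66) and *Nlrc5* (1.13). The neighbours *Psmb10* and *Tap2*, at SDs of 5.28 and 3.32, and *Psmb9* and *Tap1*, at 0.355 and 1.01, did not differ beyond their spread, nor did *Tapbp* and *H2-K1* (5.02 and 12.2). *B2m* and *H2-D1* were also within their spread, since the ranges of mean and SD overlapped (SDs 39.2 and 15.9). Exons of all transcripts were merged for the length, so genes with long minor transcripts are understated on this scale.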

How the data were processed

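Corticotrophs were sorted from 12 pools (4 groups of 3), and their RNA was amplified with SMART-V4 and made into Nextera XT libraries. Per the labels and the study's methods, the authors trimmed reads with Trim Galore 0.6.5 and aligned them to GRCm38 with STAR 2.7.1a. They counted read pairs above a mapping quality cutoff with featureCounts 2.0.0 with reverse-stranded counting, although the kits do not mark strand. The counts were scaled with edgeR. The deposited signal is CPM on the scaled library size. Whole reads were recovered for 100% of the 271881 values above 0 (tolerance 1e-06 reads), so the count models below could be run.

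Here log2(value + 0.1) of the 24736 genes above 0.1 in at least 3 libraries was fitted with limma 3.58.1 (R 4.3.3, eBayes with trend, all 12 libraries, no covariate), giving an F test of the 4 groups and 6 pairwise contrasts. P-values were Benjamini-Hochberg adjusted over all genes tested and called under 0.05. Fold changes on this scale understate the change of low genes. Subunit ratios were compared by two-sided exact permutation tests. Each pool held cage mates, and p-values measure the spread between pools. Without molecular identifiers, read counts do not count molecules. The members and lists were chosen with earlier results of these data known, and the class I and motif lists were written for this work. Named genes were all members, and from each list those called (at most 6, by F test p) and the most abundant one, beside the 10 genes most alike and the label checks *Pomc*, *Tbx19* and *Fkbp5*. *Ptprc*, *Cd3e* and *Ms4a1* were named after their values were seen. Lists on stem and folliculostellate, melanotroph, hormone lineage and corticotroph markers and glucocorticoid targets are given under the other observations. Alternatives were pseudocounts of 0.5 and 1, no filter, a filter at 1, median ratio scaling, array weights, a replicate block, each library left out, edgeR 4.0.16 (quasi-likelihood and likelihood ratio), DESeq2 1.42.0 and, chosen after seeing the data, counts scaled by total reads only.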

Additional observations from a re-analysis of the deposited data

Results flagged for a closer look

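*Psmb8* was picked out because its change from control differed between the treated groups by a direct test. Its level was higher at 1 week after withdrawal than under DEX by 1.35 on the log2 scale (limma adjusted p = 0.0322), and higher at 4 weeks than under DEX by 1.69 (limma adjusted p = 0.00832), with all 3 pools above all 3 DEX pools each time. Groups of 3 pools are too small for the test of single outlying samples, so none was made.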

How the results depend on the processing

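Limits: with 3 pools a group, 95% intervals for the members spanned 1 log2 unit or more, and the lowest values rested on 4 to 6 reads. Members called across the 4 groups numbered 6 with array weights (*H2-K1*, *H2-D1*, *B2m*, *Psmb8*, *Psmb9*, *Psmb10*, where 4.32% of all genes were called), 3 with DESeq2 (*H2-K1*, *H2-D1*, *Psmb8*, 2.97% of genes) and 1 with the other alternatives, and 0 to 1 with a library left out. Under DEX against control they numbered 1 with array weights and 1 with DESeq2 (*Psmb8* both times). At 4 weeks against control they numbered 1 with array weights (*B2m*). At 1 week against DEX they numbered 3 with DESeq2, 0 unscaled and 0 to 1 with a library left out. At 4 weeks against DEX they numbered 5 with array weights, 4 with DESeq2 and 0 to 2 with a library left out. Genes called over the 4 groups were 78 with limma, 158 with edgeR's quasi-likelihood and 1031 with its likelihood ratio test, 734 with DESeq2 and 1069 with array weights, and *Psmb8* was called by each.

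Signs turned for *Tap1* under DEX with array weights (−0.089) and at 4 weeks against DEX unscaled (−0.17), for *Tap2* under DEX in both edgeR fits (0.0027 and 0.0026) and unscaled (0.11), for *B2m* at 1 week against DEX unscaled (−0.21) and for *Psmb8* at 1 week against control unscaled (−0.038). With a library left out, the fold change under DEX ranged from −0.17 to 0.24 for *Tap1*, from −0.30 to 0.12 for *Tap2* and from −1.55 to 0.50 for *Nlrc5*. In the same fits *B2m* at 1 week against DEX ranged from −0.052 to 0.31 and *Tap1* at 4 weeks against DEX from −0.029 to 0.24. Ratios on the log2 scale ranged from −0.025 to 0.29 (*Psmb8*, 1 week against control), from −0.19 to 0.13 (*Psmb9*, 1 week) and from −0.052 to 0.24 (*Psmb10*, 4 weeks). The cause was not tested. Of all 60 member fold changes, 17 changed sign under any of 11 alternatives and 22 with a library left out. 

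After the group means were taken out, pools with the same number had r of −0.29 to 0.40. For 8 of the 12 pools, the most correlated pool of another group had the same number. These values do not settle whether the replicate number pairs pools in the design. With the replicate number as a block, 85 genes were called over the 4 groups, against 78 without it. The member called in each contrast was the same, *Psmb8*, with limma adjusted p = 0.0274 over the 4 groups.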

Other observations

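The genes whose log2 values over the 12 pools were most like the mean profile of the 10 members (Pearson's r, 15746 genes of mean value 1 or more) were *Gm20496* (0.971), *Ube2l6* (0.947), *Lgals3bp* (0.939), *Mhrt* (0.937), *Hapln4* (0.934), *H2-T23* (0.933), *Unc93b1* (0.931), *Thbs2* (0.922), *Hadh* (0.922) and *A4galt* (0.920). *Gm20496* lies antisense to *Psmb8* and *Tap2* (chr17:34199316-34205449, GRCm38), so its reads cannot be told apart from theirs in the overlap. *Ube2l6* is a conjugating enzyme of the ubiquitin-like protein ISG15, and had means of 12.7 in control pools, 7.97 in DEX pools, 15.2 at 1 week and 17.5 at 4 weeks. *H2-T23*, the nonclassical heavy chain Qa-1, was at 56.0, 50.9 and 39.7 in control pools, 25.2, 28.4 and 26.9 in DEX pools, 49.2, 78.0 and 31.1 at 1 week and 56.2, 67.1 and 77.4 at 4 weeks, with every DEX pool below every other pool. None of the 10 was called by the F test. Because the members define the profile, the values describe it and test nothing.

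The remaining marker lists gave the following. Of 9 glucocorticoid targets, *Fkbp5* was called by the F test (adjusted p = 0.0229) and *Zbtb16* in contrasts with DEX, and *Dusp1* was the most abundant. *Fkbp5* and *Zbtb16* are in the study's own list, chosen on these samples. Of 9 genes of other hormone lineages, *Tshb* was called at 4 weeks against DEX (log2 fold change 2.59, limma adjusted p = 0.0290, background 0.873%). Their summed level was 113925 to 308555 in control pools and 117314 to 175783 in DEX pools. It was 139785 to 337194 at 1 week and 244955 to 393279 at 4 weeks. At 4 weeks, 5 of the 9 were higher with no overlap against DEX (9.80% of all genes). Against control 4 were (6.77%), and 0 were lower in this way in either comparison. Of 10 stem and folliculostellate, 6 corticotroph and 4 melanotroph markers, 0 were called in any contrast by limma, with 2, 3 and 0 at an unadjusted F test p under 0.05 (9.21% of all genes). The summed stem and folliculostellate level was 145 to 222 in control pools, 184 to 195 in DEX pools, 189 to 211 at 1 week and 301 to 362 at 4 weeks, above all other pools. The summed corticotroph level was 35294 to 75533 in control pools, 5558 to 9417 in DEX pools, 43869 to 286223 at 1 week and 48721 to 80895 at 4 weeks, lowest in every DEX pool. Most of this sum was *Pomc*, and the 6 markers did not fall together. Under DEX against control, 1 was lower with no overlap (6.23% of all genes) and 2 were higher (6.61%). Their median log2 fold change was −0.21 (−0.02 over all genes). The part of these shifts in the values of the class I genes was not tested. *Aldoc*, *Pomc* and *Pcsk2* were the most abundant of these lists.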
